A study of Mus musculus with 384 samples.

Results

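The genes described here are 8 members of the nitric oxide and cyclic GMP pathway, chosen by name from the deposited count table: Nos1, Gucy1a2, Gucy1a3, Gucy1b3, Prkg1, Prkg2, Pde1a and Pde5a. They are 8 of 41266 genes with a count for every cell, of which 26749 had at least 1 read. All 8 were found in the table, and all 8 passed the low-count filter of every comparison below. They were read in the 209 of 384 single cells with at least 500000 reads on genes. These cells held 500672 to 1544810 reads, with a median of 780466, and a median of 9122 genes. The 2 cells just inside this limit held 500672 and 501741 reads, and the 2 just outside it held 488402 and 498077.

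The cells came from 8 C57BL6/J mice labelled DAT-Cre;Ai9(RCL-tdT), in which DATIRESCre switches on a tdTomato reporter. Cre is driven there by the dopamine transporter gene, so a cell that used this gene only earlier in life is labelled too. The midbrain was dissected together with the hypothalamus, dissociated, and sorted for tdTomato and exclusion of propidium iodide. Single cells were captured on the Fluidigm C1, with 1 chip per mouse, so mouse and capture run cannot be told apart. By the labels, the chips of mice 3, 4 and 5 were large and the others medium, and sequencing used different lanes. The part of chip size and lane in the values was not tested. There was no treatment. By the sample labels, 5 mice were male and 3 female, aged 24 to 36 postnatal days, and each gave 12 to 45 of the retained cells. Male and female counts in the series description differ from these, and some labelled ages lie outside the range that the protocol gives. The labels were used for both. Xist was at 14.5 to 66.3 CPM (the reads of a gene scaled to 1000000 reads on genes) in the mice labelled female and at most 0.365 CPM in the others, and Ddx3y was at 125 to 207 CPM in the mice labelled male and at most 0.137 CPM in the others.

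The labels call all cells dopamine neurons. Slc6a3, the dopamine transporter, was counted with at least 10 reads in 205 of the 209 cells, and Th, the rate-limiting enzyme of dopamine synthesis, in 198. In 23 cells from 7 mice Th was under 500 CPM, and these are called Th-low. The highest Th-low cells had 355 and 489 CPM of Th, and the lowest Th-high cells 518.1 and 541.1. In 7 cells, 5 of them Th-low, astrocyte, oligodendrocyte, microglial, endothelial and mural marker genes together reached at least 1000 CPM, and none of these 7 cells was positive for Nos1.

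Nitric oxide is made from arginine by nitric oxide synthases, and Nos1 encodes the neuronal, calcium-dependent one. The gas diffuses out of the cell that makes it and activates soluble guanylyl cyclase, a dimer of an alpha subunit, encoded by Gucy1a2 or Gucy1a3, and a beta subunit, encoded by Gucy1b3. The cyclase makes cyclic GMP, which switches on the cyclic GMP-dependent protein kinases encoded by Prkg1 and Prkg2 and is removed by phosphodiesterases. Pde1a encodes a phosphodiesterase that calmodulin activates, and Pde5a one that is specific for cyclic GMP. Producer and responder cells need not be the same, so the questions asked were which of these labelled neurons carried the synthase, which carried the machinery that responds, and whether they coincided.

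By the RefSeq annotation of GRCm38.p6, Nos1 spans 117866839 to 117958840 of chromosome 5 on the plus strand, and Prkg2 spans 98929773 to 99037375 of the same chromosome on the minus strand. Gucy1a2 spans 3532349 to 3905791 of chromosome 9 on the plus strand. Gucy1b3 and Gucy1a3, now named Gucy1b1 and Gucy1a1, lie on the minus strand of chromosome 3, at 82032004 to 82074711 and 82092427 to 82145946, with 17.7 kb and 0 annotated genes between them. Prkg1 spans 30564487 to 31765268 of chromosome 19 and Pde1a 79834453 to 80196522 of chromosome 2, both on the minus strand, and Pde5a spans 122729158 to 122859374 of chromosome 3 on the plus strand. Exons of Nos1 overlap those of the antisense gene Gm26995, exons of Gucy1a3 those of Mir7010, and exons of Pde5a those of 4930447N08Rik on the opposite strand. The libraries do not keep strand, so reads there cannot be assigned to one gene of the pair with certainty.

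Promoter windows around the annotated start site are shown for 3 genes whose pattern among the cells is described below. Those of Gucy1a3 and Gucy1b3 are shown because these subunits were detected together. Capitals mark GGGCGG (35.7% of 32851 promoter windows hold it) and CCAAT (37.4%), on either strand. Of the 4 Pde1a windows, the one that holds CAGATG is shown, picked for that, because Pde1a was higher in cells with Neurod6, a basic helix-loop-helix factor, with capitals at the E-box CAGATG (17.2%). No window is given for Prkg2. The sequences are from RefSeq, build GRCm38.p6, and a match of letters is a description only.
Gucy1a3 (chr3:82145601-82145900, minus strand): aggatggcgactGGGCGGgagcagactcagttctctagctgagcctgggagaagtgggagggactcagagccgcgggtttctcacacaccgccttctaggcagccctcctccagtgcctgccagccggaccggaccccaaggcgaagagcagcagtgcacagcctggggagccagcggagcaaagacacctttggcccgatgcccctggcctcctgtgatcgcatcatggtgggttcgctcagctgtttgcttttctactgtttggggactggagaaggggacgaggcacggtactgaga
Gucy1b3 (chr3:82074662-82074961, minus strand): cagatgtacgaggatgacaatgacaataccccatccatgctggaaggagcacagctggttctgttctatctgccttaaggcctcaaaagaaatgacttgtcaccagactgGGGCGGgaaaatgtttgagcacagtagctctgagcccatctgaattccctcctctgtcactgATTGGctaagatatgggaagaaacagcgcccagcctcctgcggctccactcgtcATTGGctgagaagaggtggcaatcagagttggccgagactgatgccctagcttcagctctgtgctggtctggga
Pde1a (chr2:80128922-80129221, minus strand): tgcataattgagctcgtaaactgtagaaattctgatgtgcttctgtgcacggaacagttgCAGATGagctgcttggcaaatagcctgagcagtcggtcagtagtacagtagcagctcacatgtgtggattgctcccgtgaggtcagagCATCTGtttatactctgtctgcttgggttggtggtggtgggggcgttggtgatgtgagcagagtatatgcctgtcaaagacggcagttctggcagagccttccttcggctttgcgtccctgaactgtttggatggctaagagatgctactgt
Of the 2 Gucy1a3 windows the first is shown, and the other held 0 of both strings. The Gucy1a3 window shown held 1 GGGCGG and 0 CCAAT, and the Gucy1b3 window 1 GGGCGG and 2 CCAAT. The Gucy1a2 window, not shown, also held 1 GGGCGG and 2 CCAAT, so these strings were not limited to the subunits detected together. The Pde1a window held 2 matches of CAGATG, with 0 in each of the other 3 Pde1a windows. The Gucy1b3 window also held 2 matches of CAGATG, which are left in lower case, and the Nos1 and Pde5a windows held 1 each. This string was therefore not limited to the window it is marked in. The 17.2% is a share of single windows, while the Pde1a window was picked from 4.

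The phosphodiesterase Pde1a was detected in most cells, the cyclase subunit Gucy1b3 in the majority, and the synthase Nos1 in a minority. With detection set at 10 reads, Pde1a was positive in 159 of 209 cells (76.1%, exact 95% interval 69.7 to 81.7%) and Gucy1b3 in 127 (60.8%, 53.8 to 67.4%). Gucy1a2 was positive in 89 cells (42.6%, 35.8 to 49.6%), Prkg1 in 71 (34.0%, 27.6 to 40.8%), Prkg2 in 37 (17.7%, 12.8 to 23.6%), Gucy1a3 in 33 (15.8%, 11.1 to 21.5%) and Nos1 in 32 (15.3%, 10.7 to 20.9%). Pde5a was positive in 9 cells (4.31%, 1.99 to 8.02%). These intervals cover counting error over cells pooled from 8 mice, not the spread between mice, and the libraries carry no molecular identifiers. By mouse, the share ran from 4.17 to 33.3% for Nos1, 2.94 to 33.3% for Gucy1a3 and 9.52 to 29.4% for Prkg2. It ran from 58.3 to 90.5% for Pde1a, 38.9 to 75% for Gucy1b3 and 25 to 57.1% for Gucy1a2. For Prkg1 it was 22.2 to 44.7% and for Pde5a 0 to 9.52%.

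The share depended on the number of reads asked for, more strongly in some members than in others. Pde1a had at least 1 read in 90.0% of cells and at least 50 reads in 62.7%. Pde5a had at least 1 read in 167 cells, but in 158 of them only 1 to 9 reads, and at least 50 reads in 3 cells. Nos1 had 1 to 9 reads in 63 cells and at least 50 reads in 22 of its 32 positive cells. The 2 lowest Nos1+ cells held 11 and 16 reads of Nos1, and the 2 highest Nos1- cells 7 and 8. Gucy1a3 was the most all-or-none member, with 0 reads in 159 cells, 1 to 9 reads in 17 and at least 50 in 19. With every cell thinned to 500672 reads, the positive cells numbered 154 for Pde1a, 113 for Gucy1b3, 74 for Gucy1a2, 58 for Prkg1, 32 for Prkg2, 31 for Nos1, 30 for Gucy1a3 and 4 for Pde5a.

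Summed over the cells of each mouse, Nos1 was lowest at 3.75 CPM, had a median of 19.9 and was highest at 128 CPM. The cyclase subunits ranged from 12.0 to 41.0 CPM with a median of 20.8 for Gucy1a2, from 2.33 to 47.4 CPM with a median of 19.2 for Gucy1a3, and from 32.3 to 120 CPM with a median of 52.5 for Gucy1b3. Prkg1 ranged from 7.98 to 60.2 CPM with a median of 18.8, and Prkg2 from 3.96 to 54.5 CPM with a median of 12.2. Both kinases were highest in mouse 6 and lowest in mouse 8. Pde1a was the steadiest member, from 98.5 to 288 CPM with a median of 215. Pde5a ranged from 1.53 to 20.7 CPM with a median of 3.48, and its highest value, in mouse 5, was 11.2 CPM without the cell with the most Pde5a (394 CPM) and 2.73 CPM without the next one too (342 CPM).

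**Figure D1:**
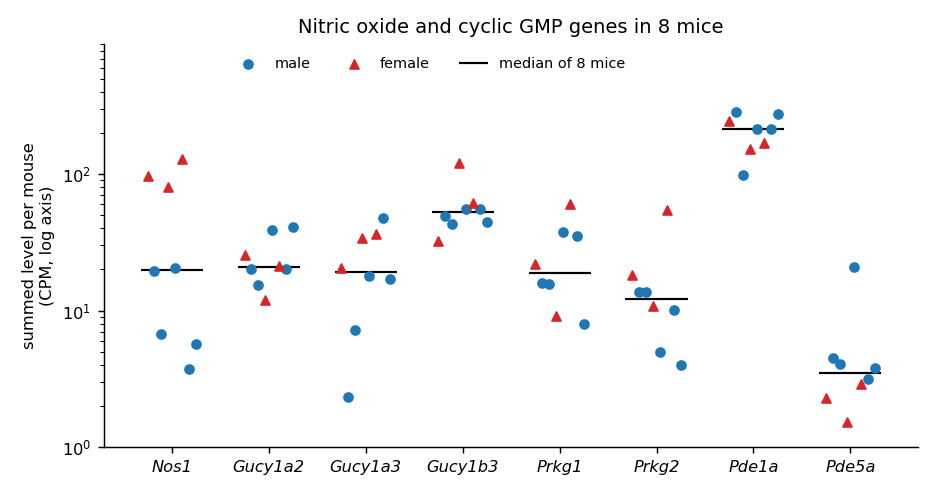
Level of the 8 genes in each of 8 mice, as CPM over all reads of the retained cells of that mouse, on a log axis. Circles are male and triangles female mice, and the line is the median. Pde1a lies at 98.5 CPM or above in every mouse, while the 3 female mice hold the highest values of Nos1.

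Per kilobase of exon, which allows genes to be compared, the levels were 34.5 ± 10.7 CPM per kb for Pde1a and 14.7 ± 6.83 for Gucy1b3 (mean ± SD, n = 8 mice). Pde1a exceeded Gucy1b3 in 7 of 8 mice, and Gucy1b3 exceeded Nos1 in 7 of 8. Nos1 (4.06 ± 4.41 CPM per kb), Gucy1a2 (3.65 ± 1.56), Gucy1a3 (3.28 ± 2.20), Prkg2 (3.03 ± 3.01) and Prkg1 (2.34 ± 1.64) lay within each other's spread, and each exceeded the next in 3 to 6 of 8 mice. Pde5a was last at 0.545 ± 0.638 CPM per kb, below Prkg1 in 8 of 8 mice. The beta subunit was counted at 8.22 CPM per kb or more in every mouse, above the highest values of the alpha subunits, 6.16 for Gucy1a2 and 6.80 for Gucy1a3.

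Nos1 was carried by 3 kinds of cell. Of the 32 Nos1+ cells, 15 were positive for Tac1, the gene of the neuropeptide substance P. All 15 were Th-low and positive for Slc17a6, a vesicular glutamate transporter, and they came from 6 mice. Their Nos1 level was 67.7 to 674 CPM with a median of 352, while their Th had a median of 11.6 CPM. A further 7 Nos1+ cells, from 3 mice, were positive for Gad1, which makes GABA. None of these 7 was Th-low, their Th had a median of 1729 CPM, and their Nos1 was 15.6 to 303 CPM with a median of 131. The other 10 Nos1+ cells, from 5 mice, held neither gene at 10 reads and had a Th median of 6371 CPM and a Slc6a3 median of 4767 CPM, and their Nos1 was 18.6 to 122 CPM with a median of 48.2.

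The Tac1+ Nos1+ cells also held genes listed in the study's comparison of clusters of these same cells, so what follows is not independent evidence of such a group. Irx6, an Iroquois transcription factor gene, was positive in 11 of the 15, the fatty acid transporter gene Cd36 in 13, and Nxph1, the gene of a neurexin ligand, in all 15. Among the 177 Nos1- cells, Irx6 was positive in 0, which allows a share of up to 1.69%, Cd36 in 2 and Nxph1 in 28. In all 15 cells Slc6a3 (median 417 CPM) and Slc18a2, the vesicular monoamine transporter (median 506.9 CPM), were positive, below their medians in the 10 Nos1+ cells without Tac1 or Gad1 (4767 and 1846 CPM). Of the 23 Th-low cells, 16 were Tac1+ and 15 of these were Nos1+, while the 7 Th-low cells without Tac1 held at most 2.77 CPM of Nos1. The 5 Th-high Tac1+ cells held 0 reads of Nos1. Nos1 was therefore counted in 15 of the 16 Th-low Tac1+ cells, and in 17 of the 181 Th-high cells without Tac1.

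**Figure D2:**
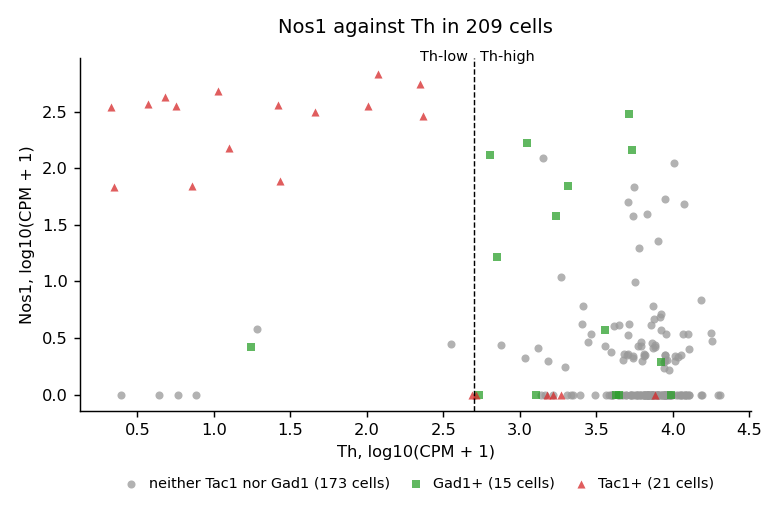
Each point is 1 of the 209 cells, with Th on the horizontal and Nos1 on the vertical axis, both as log10 of CPM plus 1. The dashed line is the Th limit of 500 CPM. The 15 Nos1+ cells left of the line are all Tac1+ triangles, with 67.7 to 674 CPM of Nos1, and the Gad1+ squares with Nos1 lie to its right.

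By rank correlation over the 209 cells, among 12105 genes, the genes most like Nos1 included Pgr15l (Spearman rho 0.45), 4933436C20Rik (0.44), Irx6 (0.43) and Nxph1 (0.42). Pgr15l was positive in 24 cells, 19 of them Nos1+, and 4933436C20Rik in 12 cells, all 12 Nos1+. These coefficients describe cells that share 8 capture runs and differ in depth, and no p-value is attached. Gucy1a3 was most like Negr1 (0.43), a cell adhesion gene positive in all 33 Gucy1a3+ cells, then Gucy1b3 (0.35) and Atp8a1 (0.34). Gucy1b3 was most like Gucy1a3, Plcxd3 (0.32) and Kif2a (0.29), and Gucy1a2 most like Fndc3a (0.29), Trp53i11 (0.27) and Fut8 (0.27). The kinase genes had other neighbours, C78339 (0.29), Slc35e3 (0.29) and Arl8a (0.28) for Prkg1, and the calcium channel subunit Cacna2d3 (0.38), LOC102635113 (0.33) and Rph3a (0.33) for Prkg2. Pde1a was most like Grp, the gene of gastrin-releasing peptide (0.42), Tcf12 (0.40) and Gfra1 (0.38), and 72 of the 77 Grp+ cells were Pde1a+.

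The cyclase subunit genes were detected in several combinations. Gucy1b3 occurred with an alpha subunit in 71 of 209 cells (34.0%, exact interval 27.6 to 40.8%), namely with Gucy1a2 only in 40, with Gucy1a3 only in 16 and with both in 15. In 56 cells Gucy1b3 was positive without an alpha subunit, in 35 an alpha subunit was positive without Gucy1b3, and in 47 cells no subunit reached 10 reads. The alpha subunits related differently to the beta subunit. Of the 33 Gucy1a3+ cells, 31 were Gucy1b3+, against 96 of the 176 cells without Gucy1a3, and in 7 of 8 mice every Gucy1a3+ cell was Gucy1b3+. After thinning to equal depth these numbers were 27 of 30 and 86 of 179. For Gucy1a2, 55 of 89 positive and 72 of 120 negative cells were Gucy1b3+. This pair of genes was noticed after its values were seen and was not tested. Among the 28 pairs of the 8 genes, rho was 0.35 for Gucy1a3 with Gucy1b3 and between -0.08 and 0.20 for all others.

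**Figure D3:**
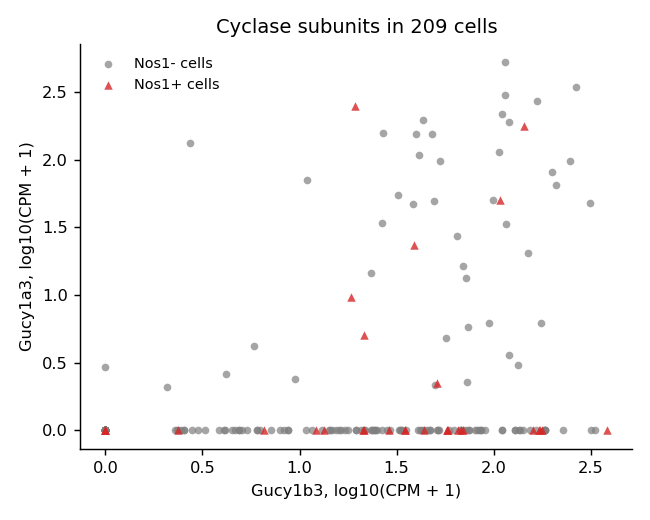
Gucy1a3 against Gucy1b3 in the 209 cells, both as log10 of CPM plus 1, with Nos1+ cells as triangles. Cells with Gucy1a3 lie almost all to the right, where Gucy1b3 is also counted, and many cells with Gucy1b3 lie on the floor of Gucy1a3.

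Prkg1 alone was positive in 53 cells, Prkg2 alone in 19, both kinases in 18 and neither in 119. Of the 71 Prkg1+ cells 18 were Prkg2+ (25.4%), against 19 of the 138 Prkg1- cells (13.8%), and after thinning these were 13 of 58 and 19 of 151. Prkg1 held at least 50 reads in 24 cells and Prkg2 in 18, and a single cell of mouse 5 held 694 CPM of Prkg1. The 10 cells with the most Prkg2 carried 60.2% of its summed CPM and those with the most Prkg1 43.2%. The same share was 65.6% for Nos1, 63.9% for Pde5a, 62.3% for Gucy1a3, 32.3% for Gucy1a2, 28.0% for Pde1a and 24.8% for Gucy1b3, so the levels of Nos1, Pde5a, Gucy1a3 and Prkg2 rested on few cells.

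The first contrast asked which members differed between Th-low and Th-high cells, over 5 mice that held 3 or more cells of both classes (21 and 98 cells). Fewer cells with a transcript and fewer reads per cell cannot be told apart in these sums. The genes and classes were chosen with results of these counts known, so the fitted values describe the members. Nos1 stood at 198, 153, 220, 199 and 470 CPM in the Th-low cells of mice 1, 2, 4, 5 and 6, and at 52.9, 7.40, 0.926, 2.04 and 8.36 CPM in their Th-high cells. The classes did not overlap, with 248 ± 126 against 14.3 ± 21.8 CPM (mean ± SD, n = 5 mice). The fitted log2 difference was 4.19 (SE 0.94), which did not pass the threshold of 0.05 in edgeR's quasi-likelihood test after Benjamini-Hochberg adjustment over 11132 genes (adjusted p = 0.0921). DESeq2 called it (log2 difference 4.26, adjusted p = 0.000466), as did the edgeR test without mouse 1 (5.84, adjusted p = 0.0166) and with cells from 100000 reads (4.24, adjusted p = 0.0437). The Th-high cells of mouse 1 included 3 of the Gad1+ Nos1+ cells, and their part in this call was not tested. Without mouse 2, 4, 5 or 6 the log2 difference was 3.69 to 4.15, with edgeR adjusted p of 0.142 to 0.328. Over the alternatives run for this gene, adjusted p ranged from 0.000466 to 0.876, and with Th-low set under 100 CPM the difference was 2.70.

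All 15 Th-low cells with Nos1 were Tac1+, so leaving out Tac1+ cells fixed the direction: it left 7 Th-low cells of 3 mice, with 1 cell of each class allowed in place of 3, and a log2 difference of -3.99 (edgeR adjusted p = 0.286). Without the 7 cells of high glial and mural markers the log2 difference was 4.36. Th-low cells also held more immediate early gene reads, with a median sum of 1588 against 94.6 CPM over 7 genes, and fewer reads in all (median 691056 against 783118). The part of activity genes and depth in the Nos1 difference was not tested.

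The other 7 members overlapped between the classes, and only Nos1 had an unadjusted p under 0.05, beside 9.24% of all genes. Gucy1b3 was at 76.8 ± 41.9 CPM in Th-low and 62.4 ± 36.7 in Th-high cells (n = 5 mice), Gucy1a2 at 33.4 ± 23.8 and 22.6 ± 10.0, and Gucy1a3 at 15.1 ± 27.0 and 23.6 ± 17.3. Prkg1 was at 32.7 ± 51.7 and 27.2 ± 12.4 CPM and Prkg2 at 24.4 ± 26.1 and 21.2 ± 26.6. Pde1a was at 252 ± 347 CPM in Th-low cells, where mouse 2 held 865, and at 222 ± 60.4 in Th-high cells. It was positive in 10 of 23 Th-low and 149 of 186 Th-high cells, so its mean and its share of cells pointed in different directions. Pde5a was at 2.32 ± 0.789 and 6.76 ± 8.96 CPM, and 0 of 23 Th-low cells reached 10 reads, which allows a share of up to 13.0%.

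None of the 8 members passed edgeR's threshold here, beside 0.485% of all genes tested. By DESeq2 1 member passed (Nos1), beside 5.68% of all genes. Classes did not overlap for 1 of the 8, beside 3.97% of all genes. Of the other 47 genes of the pathway lists, 21 were tested by edgeR, 0 rose and 1 fell. This was Gch1, which makes the pterin cofactor that both tyrosine hydroxylase and the nitric oxide synthases use, at 5.11 ± 4.16 against 92.3 ± 22.6 CPM (log2 difference -4.12, SE 0.69, adjusted p = 0.0283). The median log2 difference of these 21 was -0.18, beside 0.11 over all genes. Of 26 that DESeq2 tested it called 0 higher and 5 lower, Gch1 among them. It called Nos1ap, an adaptor protein of Nos1, lower (30.9 ± 24.7 against 243 ± 78.7 CPM, DESeq2 adjusted p = 0.00195), and Nostrin, Ppp1r17 and Pde1c. These last 3 were at 0 to 0.0529 CPM in Th-low cells and so could enter that test only through the Th-high cells, and edgeR's low-count filter left them out.

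The second contrast set Neurod6+ cells, with at least 10 reads of Neurod6, against Neurod6- cells, over 6 mice (47 and 133 cells). Pde1a was higher in the Neurod6+ cells of each mouse, with 472 ± 230 against 135 ± 57.1 CPM (mean ± SD, n = 6 mice), and both kinase genes and Gucy1a3 were lower in 5 or 6 of the 6. In mice 1, 2, 3, 5, 7 and 8, Pde1a was lowest at 154, with a median of 399 and a maximum of 750 CPM in Neurod6+ cells, and lowest at 85.1, with a median of 122 and a maximum of 238 CPM in Neurod6- cells. The ranges overlapped between the Neurod6+ cells of mouse 3 (154 CPM) and the Neurod6- cells of mouse 2 (238 CPM), and the Neurod6+ value was higher in 6 of 6 mice. The log2 difference was 1.86 (SE 0.35, adjusted p = 0.0959 by edgeR, p = 0.000107 before adjustment). DESeq2 called it (1.90, adjusted p = 0.00056), and so did edgeR without mouse 3 (1.96, adjusted p = 0.0362) and with cells from 100000 reads (2.04, adjusted p = 0.0384). Without any 1 of the other 5 mice it was 1.61 to 2.16, with adjusted p of 0.126 to 0.381. With mouse as a block the adjusted p was 0.177, and over the alternatives it ranged from 0.00056 to 0.44, with the smallest difference, 1.18, where Neurod6+ began at 1 read. All 49 Neurod6+ cells were Pde1a+, against 110 of 160 Neurod6- cells, and 47 of the 49 held at least 50 reads.

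Gucy1a3 was at 0 to 14.4 CPM with a median of 0.175 in Neurod6+ cells and at 3.26 to 82.2 CPM with a median of 21.6 in Neurod6- cells. The value was lower in Neurod6+ cells in 6 of 6 mice, and the ranges overlapped through mouse 5, where 1 of the 6 Neurod6+ cells held all 76 reads. The Neurod6+ cells of these mice held 82 reads in all, so Gucy1a3 entered the test mainly through the Neurod6- cells. The log2 difference was -3.37 (SE 1.35, edgeR adjusted p = 0.717), it was -6.98 (edgeR adjusted p = 0.154) without mouse 5 and -2.43 (edgeR adjusted p = 1.00) without mouse 7, and it was 0.17 (edgeR adjusted p = 1.00) when cells with 1 or more reads of Neurod6 were called Neurod6+. Over the alternatives the adjusted p ranged from 0.154 to 1.00. In cells, 1 of 49 Neurod6+ and 32 of 160 Neurod6- cells were Gucy1a3+, while Gucy1a2 was positive in 31 of 49 and 58 of 160. Gucy1b3 was positive in 23 of the 49 Neurod6+ cells, in 16 of them with Gucy1a2 and in 7 with no alpha subunit.

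Prkg1 was at 2.70 to 13.6 CPM with a median of 11.4 in Neurod6+ and at 13.3 to 52.7 with a median of 21.5 in Neurod6- cells, lower in 6 of 6 mice with ranges that overlapped narrowly (log2 difference -1.37, SE 0.52, edgeR adjusted p = 0.692). The difference was -0.25 when mice with at least 2 cells of both classes entered, which adds mouse 6, and -0.14 with Neurod6+ from 1 read. Prkg2 was at 0 to 6.72 CPM with a median of 0.791 in Neurod6+ and at 3.14 to 22.4 with a median of 16.0 in Neurod6- cells, lower in 5 of 6 mice (-2.56, SE 1.05, edgeR adjusted p = 0.726). The Neurod6+ cells held 97 reads of it in all, so Prkg2 too entered the test mainly through the Neurod6- cells. Of the 49 Neurod6+ cells, 13 were Prkg1+ and 2 Prkg2+. No Neurod6+ cell held both kinases, which allows a share of up to 6.12%, against 18 of 160 Neurod6- cells, and 34 of the 49 held neither. With so few Prkg2+ cells, this does not show that the kinases exclude each other.

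**Figure D4:**
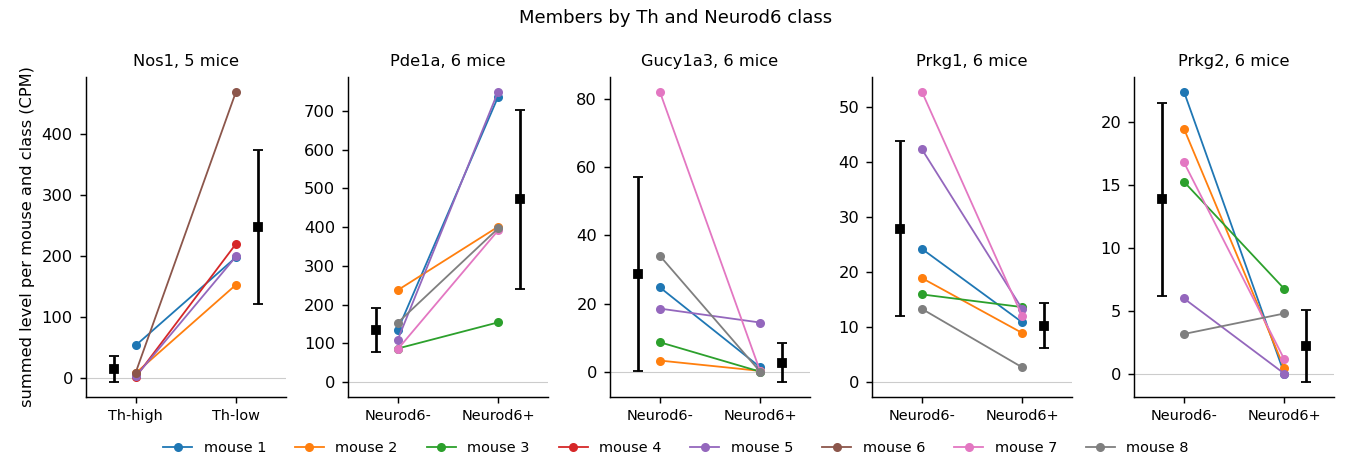
Level of Nos1 by Th class in 5 mice and of Pde1a, Gucy1a3, Prkg1 and Prkg2 by Neurod6 class in 6 mice, as CPM of the summed reads of each mouse and class. Lines join the classes of 1 mouse, and squares with bars are mean ± SD. Nos1 lies higher in Th-low cells in 5 of 5 mice, Pde1a higher and Gucy1a3 and Prkg1 lower in Neurod6+ cells in 6 of 6, and Prkg2 lower in 5 of 6.

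The other 4 members overlapped between the Neurod6 classes and had unadjusted p above 0.05. Nos1 was at 0.3797 to 96.9 CPM with a median of 0.994 in Neurod6+ and at 3.86 to 97.3 with a median of 17.5 in Neurod6- cells, lower in 5 of 6 mice and higher in mouse 3. In cells, 3 of 49 Neurod6+ and 29 of 160 Neurod6- cells were Nos1+. Gucy1a2 was at 37.8 ± 30.0 CPM in Neurod6+ and 24.2 ± 10.6 in Neurod6- cells (n = 6 mice), Gucy1b3 at 43.7 ± 22.9 and 48.9 ± 13.7, and Pde5a at 2.66 ± 0.805 and 7.34 ± 8.48. None of the 8 passed edgeR's threshold, beside 0.0555% of all genes, and 4 had an unadjusted p under 0.05, beside 6.20%. Of these 4, Gucy1a3 and Prkg2 entered the test mainly through the Neurod6- cells. Classes overlapped for all 8, beside 0.793% of all genes that did not overlap. By DESeq2 1 of 8 passed (Pde1a), beside 2.05% of all genes. Of the 26 other pathway genes tested by edgeR, 0 were called, with 5 at an unadjusted p under 0.05 and a median log2 difference of -0.08 beside 0.00 over all genes. DESeq2 called 3 of 31, Ppp1r17 higher (51.9 ± 30.6 against 2.41 ± 3.05 CPM, DESeq2 adjusted p = 0.00221), Pde3a lower (0.489 ± 0.416 against 6.43 ± 3.61 CPM, DESeq2 adjusted p = 2.74e-05) and Pde11a lower (2.09 ± 2.74 against 20.5 ± 14.2 CPM, DESeq2 adjusted p = 0.0156). Pde3a was at most 1.06 CPM in the Neurod6+ cells of any mouse and so entered the test mainly through the Neurod6- cells. Ppp1r17 encodes a substrate of cyclic GMP-dependent kinase, and Pde3a and Pde11a are further phosphodiesterases. Mice 4 and 6 held fewer than 3 Neurod6+ cells and did not enter.

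The third contrast asked whether cells that make the synthase also carry the response genes. Over 7 mice with at least 3 Nos1+ cells (31 Nos1+ and 154 Nos1- cells), 0 of the 7 effector genes passed edgeR's threshold (0.0531% of all genes did), 0 passed by DESeq2 (2.66%), and 0 had an unadjusted p under 0.05 (7.36%). The values of the classes overlapped for all 7, beside 0.292% of all genes that did not overlap. Gucy1b3 was at 69.3 ± 54.6 CPM in Nos1+ and 56.3 ± 32.3 in Nos1- cells, Gucy1a2 at 21.9 ± 13.4 and 26.3 ± 13.5, and Gucy1a3 at 17.1 ± 28.0 and 17.7 ± 17.1. Prkg1 was at 21.0 ± 37.0 and 23.8 ± 13.7 CPM and Prkg2 at 23.0 ± 29.7 and 14.0 ± 13.5. Pde1a was at 177 ± 77.4 and 215 ± 75.7 CPM and Pde5a at 4.31 ± 4.63 and 5.93 ± 7.61. These values do not show that the classes are alike.

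Counted by cells, Gucy1b3 was positive in 25 of 32 Nos1+ cells (78.1%, exact interval 60.0 to 90.7%) and 102 of 177 Nos1- cells (57.6%, 50.0 to 65.0%). The share was higher in Nos1+ cells in 7 of 8 mice, and mouse 5 was the exception. After thinning to equal depth these numbers were 20 of 31 and 93 of 178, and mouse 1 too was then lower in Nos1+ cells (1 of 6 against 4 of 12). Thinned, Prkg1 was positive in 4 of 31 and 54 of 178, Pde1a in 19 and 135, Gucy1a2 in 12 and 62, Prkg2 in 7 and 25, Gucy1a3 in 4 and 26, and Pde5a in 1 and 3. In this single random draw the gap of Gucy1b3 was narrower, and that of Prkg1, in the other direction, wider. Nos1+ cells held a median of 735550 reads and Nos1- cells 782046, and the part of depth in these shares was not tested. Unthinned, Gucy1b3 stood with an alpha subunit in 15 of 32 Nos1+ and 56 of 177 Nos1- cells, and in 11 of those 15 the alpha subunit was Gucy1a2 alone. Pde1a was positive in 22 of 32 and 137 of 177, Gucy1a2 in 15 and 74, Prkg1 in 8 and 63, Prkg2 in 8 and 29, Gucy1a3 in 4 and 29, and Pde5a in 2 and 7. Neither kinase was positive in 19 of 32 Nos1+ and 100 of 177 Nos1- cells. By kind of Nos1+ cell, Prkg2 was positive in 6 of the 15 Tac1+ cells, in 0 of the 7 Gad1+ cells, which allows a share of up to 42.9%, and in 2 of the 10 others, while Pde1a was positive in 7, 6 and 9 of them.

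**Figure D5:**
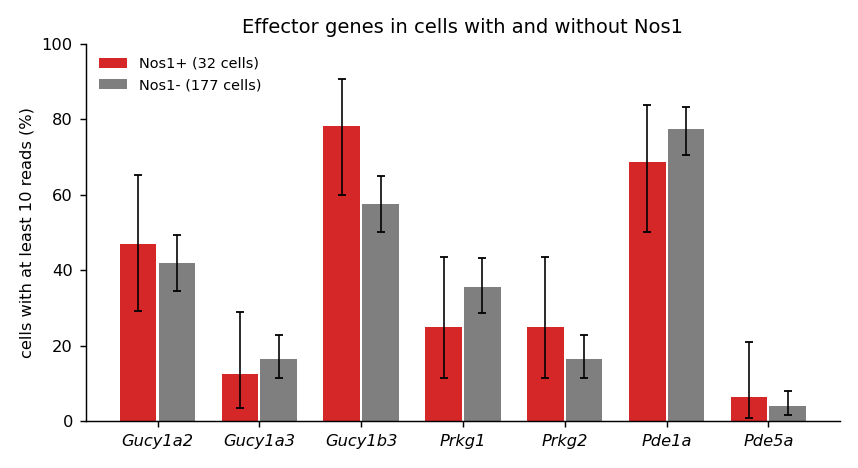
Share of Nos1+ (32) and Nos1- (177) cells with at least 10 reads of each effector gene, with exact 95% intervals for counting error over cells pooled from 8 mice, which do not compare the classes. Gucy1b3 stands at 78.1% against 57.6%, before thinning to equal depth.

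Among the 23 other pathway genes tested by edgeR in this contrast 0 were called, and 4 had an unadjusted p under 0.05, beside 7.36% of all genes. DESeq2 called 1 of 30, beside 2.66% of all genes. This was Abcc4, an exporter of cyclic nucleotides, at 0.0329 ± 0.0871 against 3.99 ± 3.23 CPM (DESeq2 adjusted p = 1.36e-05), so it too entered that test through 1 class. Nos1+ cells held more immediate early gene reads (median sum 784 against 95.6 CPM) and more of the glutamatergic markers (233 against 14.8 CPM) than Nos1- cells, and their part in these values was not tested.

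The contrast between male and female mice was not part of the choice of genes. Nos1 was at 97.2, 80.8 and 128 CPM in the 3 females and at 19.4, 6.70, 20.4, 3.75 and 5.68 CPM in the 5 males. Every female was above every male. The log2 difference of male against female mice was -3.18 (SE 0.54, p = 0.000164 before adjustment), and it did not pass edgeR's test after adjustment over 15528 genes (adjusted p = 0.231). DESeq2 called it (-3.22, adjusted p = 1.52e-05). All 3 females were captured on the same C1 machine, and the 2 males captured on that machine were at 3.75 and 19.4 CPM, below the females. The other machine held males only, and the part of the machine in the difference was not tested. Age was not fitted. Females of 25, 33 and 36 postnatal days were at 97.2, 80.8 and 128 CPM of Nos1, and males were of 24 to 28 days. The part of age in the difference was not tested.

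The sexes differed in the cells captured. Th-low cells made up 14 of 47 female and 9 of 162 male cells, and Tac1+ Nos1+ cells 10 and 5. Leaving out Tac1+ cells takes away those Nos1+ cells. Nos1 was then at 41.7, 0.926 and 8.94 CPM in the females and at 0.946 to 7.24 CPM in the males, the groups overlapped, and the log2 difference was -1.83 (edgeR adjusted p = 0.746, the highest over the alternatives, of which 1.52e-05 was the lowest).

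Prkg2 was at 18.3, 10.7 and 54.5 CPM in females and at 13.6, 13.8, 4.98, 10.1 and 3.96 in males, with overlap (log2 difference -1.54, SE 0.64, edgeR adjusted p = 0.579), and the difference was -0.57 without mouse 6 and -0.42 with cells from 750000 reads. Pde5a was at 2.27, 1.53 and 2.89 CPM in females and at 3.16 to 20.7 in males, so Nos1 and Pde5a were the 2 of 8 members whose values did not overlap, beside 5.6% of all genes. The Pde5a values rest on few reads per cell, and its difference had an unadjusted p of 0.0713. The other 5 members overlapped between the sexes, with unadjusted p from 0.199 to 0.515. None of the 8 passed edgeR's threshold (0.0322% of all genes did), 2 had an unadjusted p under 0.05 (8.12%), and 1 of 8 passed by DESeq2 (2.02%).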

How the data were processed

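Single-cell cDNA was made on the Fluidigm C1 and sequenced from Nextera libraries, which hold no molecular identifiers and no strand. Per the labels and the study's methods, the authors aligned reads to GRCm38 with TopHat2 2.1.1 and trimmed them with Trimmomatic 0.3.2, and they deposited raw read counts per RefSeq gene from featureCounts 1.5.0-p3, leaving out reads shared by genes. Spike-in and transgene entries (0.00457% of reads) were left out. Reads were summed per mouse and class for mice with at least 3 cells of both classes, and tested with edgeR 4.0.16 (TMM, its expression filter, quasi-likelihood test, Benjamini-Hochberg adjustment over all genes) in R 4.3.3. DESeq2 1.42.0 was an alternative. Mice were the replicates, and CPM is reads per 1000000 reads on genes. Classes of one mouse share the animal and run, and their deviations correlated at 0.0194 to 0.157 for Th, 0.0540 to 0.275 for Neurod6 and -0.00498 to 0.259 for Nos1 classes. Fitted differences are printed for members with an unadjusted p under 0.05 and for the pathway gene called by edgeR. Pathway genes called by DESeq2 alone are given with class levels and the adjusted p, or with their Th-low range only. Class levels are given otherwise. The 5 genes most like Nos1 and the 3 most like each other member with at least 10% positive cells were named, among genes with 10 reads in at least 10 cells, and 1 of the 5 is not reported here. The members, lists and classes were chosen with earlier results of these data known.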

Additional observations from a re-analysis of the deposited data

Results flagged for a closer look

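In 20 of 56 groups of 5 to 7 mice, the most extreme mouse stood further from the nearest other than Dixon's 95% critical value allows. Chance gives about 5% of groups only if values follow a normal distribution. These were CPM without log scaling, and each flagged mouse was the highest of its group. Values below are in CPM, with the nearest other mouse after "next to". Between Th classes these were Nos1 in Th-low cells of mouse 6 (470, next to 220) and Th-high cells of mouse 1 (52.9, next to 8.36), Gucy1a3 in Th-low cells of mouse 4 (62.2, next to 13.1), Gucy1b3 in Th-high cells of mouse 4 (127, next to 52.3), Prkg1 in Th-low cells of mouse 6 (123, next to 29.9), Pde1a in Th-low cells of mouse 2 (865, next to 181) and Pde5a in Th-high cells of mouse 5 (22.7, next to 4.60). Between Neurod6 classes these were Nos1 in mouse 1 in Neurod6+ (96.9, next to 20.4) and Neurod6- cells (97.3, next to 27.7), Gucy1a2 in Neurod6+ cells of mouse 5 (97.0, next to 39.7), Gucy1a3 in Neurod6+ cells of mouse 5 (14.4, next to 1.30) and Pde5a in Neurod6- cells of mouse 5 (24.4, next to 5.59).

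Between Nos1 classes these were Gucy1a3 in Nos1- cells of mouse 6 (52.6, next to 19.6), Gucy1b3 in Nos1- cells of mouse 4 (127, next to 59.1), Prkg1 in Nos1+ cells of mouse 6 (104, next to 13.7), Prkg2 in mouse 6 in Nos1+ (84.2, next to 29.6) and Nos1- cells (41.4, next to 18.2), Pde5a in Nos1+ cells of mouse 3 (13.9, next to 6.39) and Pde5a in Nos1- cells of mouse 5 (23.1, next to 4.20). Among male mice Pde5a was high in mouse 5 (20.7, next to 4.46). The contrasts share cells, so these values are not independent of each other.

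The 175 cells under the read limit, with a median of 88436 reads, entered no main comparison. Those with at least 100000 reads entered only the alternative with that limit. At least 10 reads were found there for Pde1a in 14.9% of cells, Gucy1b3 in 11.4%, Gucy1a2 in 7.43%, Prkg2 in 5.14%, Prkg1 in 4.57%, Pde5a in 4.00%, Gucy1a3 in 3.43% and Nos1 in 2.86%, each above the 1.71% that a count of 0 would allow.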

How the results depend on the processing

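The number of called genes moved by more than 1.5 times under many settings in the Th, Neurod6 and Nos1 contrasts and under 2 between the sexes. All counts below are of genes past an adjusted p of 0.05. For Th-low against Th-high cells edgeR called 54, DESeq2 803, and edgeR without a low-count filter 30. Other cell and class limits gave 98 with cells from 100000 reads, 8 with cells from 750000 and at least 2 in place of 3 cells of each class, 0 with Th-low under 100 CPM (767 at an unadjusted p under 0.05), 0 without Tac1+ cells and with at least 1 cell of each class (1914), and 10 (without mouse 6) to 105 (without mouse 1) with each of the 5 mice left out. For the Neurod6 classes edgeR called 7, DESeq2 333, RLE scaling 4 (3 higher and 1 lower, where TMM gave 3 and 4) and no low-count filter 3. Cells from 100000 reads gave 12, at least 5 cells of each class 3, Neurod6+ from 50 reads 3, Th-high cells only 1, and leaving out each mouse 1 (mice 2, 5, 7 or 8) to 18 (mouse 3). For the Nos1 classes edgeR called 6, DESeq2 417, cells from 100000 reads 14, at least 5 cells of each class 0 (378 at an unadjusted p under 0.05), Nos1+ from 1 read 1 and from 50 reads 3, Th-high cells only 1, and leaving out each mouse 1 (mouse 2) to 38 (mouse 3). Between the sexes edgeR called 5, DESeq2 318 and cells from 750000 reads 3. With mouse as a replicate block the counts were 11 for Th, 1 for Neurod6 and 1 for Nos1 classes, and it changed no call of a member.

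Of the members' differences recomputed under alternatives, 109 kept direction and side of the threshold, 7 passed it where the edgeR value did not, and 2 changed sign. These 2 were Nos1 between Th classes without Tac1+ cells (-3.99) and Gucy1a3 between Neurod6 classes with Neurod6+ from 1 read (0.17). The first follows from its construction, since all Th-low cells with Nos1 were Tac1+, and the cause of the second was not tested. The 24 other member differences were never called, and 16 of them changed sign in at least 1 alternative. Leaving out Tac1+ cells, cells with glial and mural markers, or each mouse in the detection shares was chosen after seeing the data. At least 5 cells per Th class was not run, since mouse 1 alone has them. Classes of few cells limit depth: a member carried by few cells gives wide spreads, and detection shares cover cells with 10 reads, not all cells that express a gene.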

Other observations

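Other genes of the pathway were counted in the retained cells, and their shares of positive cells over all 209 cells are given here. Around the synthase, Nos1ap, its adaptor, held at least 10 reads in 83.3% of cells, Ddah1, which breaks down a methylarginine inhibitor of the synthases, in 89.0%, and Gch1 in 73.7%, while Nos3, the endothelial synthase, reached 10 reads in 8.13%. Among membrane guanylyl cyclases, Gucy2c was positive in 57.9% of cells and the natriuretic peptide receptor gene Npr2 in 32.5%. Among phosphodiesterases that degrade cyclic GMP, Pde10a was positive in 66.5%, Pde2a in 59.8%, Pde1b in 44.0% and Pde9a in 21.5%, and the exporter gene Abcc5 in 98.1%.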
